A study of Mus musculus with 17 samples.

Results

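Long intergenic non-coding RNA (lincRNA) genes are transcribed outside protein-coding genes into RNAs that are spliced and carry a polyA tail but are not known to be translated. Here 181 expressed lincRNA genes were followed in the ageing mouse hippocampus. A member had the gene type lincRNA in GENCODE vM21 and a mean of at least 1 CPM (a gene's count over the library's count on all genes, scaled to counts per 1000000) over the 17 deposited count files. Of 38355 identifiers in the files, 36602 were matched to that annotation, 1609 were lincRNA genes and 186 of these reached the threshold. The abundant genes Neat1, Malat1, Meg3, Miat, Snhg11, Rian and Mirg were left out by name, which removed 5 of the 186. The members were thus chosen by their mean level over all libraries, so levels are given as a description.

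All mice were wild type C57BL/6J without treatment, and polyA RNA was taken from hand-dissected hippocampus. The single-end libraries came from mice aged 3 months (3M, n = 5) and 24 months (24M, 6 libraries). The paired-end libraries came from mice aged 3 months (n = 3) and 29 months (29M, n = 3). Each aged group was set against the young group made with the same library type. Between 24M and 29M, age and library type cannot be told apart. Replicates 1 and 4 of the 24M group differed by less than the sampling noise (ratio of observed to expected difference 0.406) and were counted as 1 sample, which left 5. Nothing in the sources used here ties libraries to separate animals by name, so p-values measure the spread between these samples.

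The libraries held between 9213474 and 28438296 counts on genes, and 179 of 181 members had a count in every library. The markers of hippocampal neurons summed to between 965 and 1361 CPM in the single-end libraries, and none of the 7 was called at either age. The counting found no feature for 12.7% of reads in 24M replicate 3, against 9.79 to 10.4% in the other 24M libraries. In 29M replicate 2 this share of reads without a gene was 15.9%. Reads in introns can be among them, so it is not a share outside genes. 24M replicate 3 was the highest of its group for 61 members (33.7%), against 20.0% of all genes tested. In 3M single-end libraries the markers of striatum summed to between 93.3 and 397 CPM. In whole tissue, fewer cells of a type and less RNA per cell cannot be told apart.

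In brain, lincRNAs are known as hosts of microRNAs and small nucleolar RNAs (snoRNAs), as regulators of X inactivation and as partners of neighbouring developmental genes. A microRNA host is a long transcript from which a hairpin is cut. The mature microRNA then pairs with target mRNAs mainly through its seed, bases 2 to 8. Of the members, 12 held a microRNA gene on their own strand, and mature sequences were found in RefSeq (GRCm38.p6) for 10. The sequences below are those of the hosts with the highest levels and of the hosts that carry let-7, miR-101a and miR-129, with the seed in capitals.
miR-9-5p (Gm3764, C130071C03Rik and Mir9-3hg): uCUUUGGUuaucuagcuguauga
miR-374b-5p (Ftx): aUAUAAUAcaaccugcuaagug
miR-421-5p (Ftx): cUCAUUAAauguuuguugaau
let-7a-5p (6720427I07Rik): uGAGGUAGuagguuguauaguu
let-7d-5p (6720427I07Rik): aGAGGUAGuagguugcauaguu
let-7f-5p (6720427I07Rik): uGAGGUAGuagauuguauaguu
miR-101a-3p (E130102H24Rik): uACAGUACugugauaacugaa
miR-129-5p (Mir670hg): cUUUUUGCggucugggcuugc
The same miR-9-5p sequence is held by 3 members on different chromosomes, and the 3 let-7 sequences of 6720427I07Rik share 1 seed. Mir124a-1hg holds Mir124a-1, the gene of a microRNA known for its abundance in neurons. The libraries measured the long host transcripts, not the mature microRNAs.

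Most members were weakly expressed. Their median level was 3.09 CPM, with 59 members between 1 and 2 CPM, 63 between 2 and 5 CPM and 5 at 50 CPM or more. Divided by exonic length, the median was 1.45 CPM per kb, against 5.93 CPM per kb for the 13670 protein-coding genes of at least 1 CPM. Per kb of exon, the highest level belonged to Gm42418, a ribosomal RNA-like gene, with 2620 CPM per kb. It was followed by 1700020I14Rik (75.2 CPM per kb), Tmem250-ps (24.8 CPM per kb), Gm16295 (20.2 CPM per kb), Gm10076 (14.2 CPM per kb) and Mir124a-1hg (13.3 CPM per kb). Neither 1700020I14Rik nor Tmem250-ps passed the test at either age, with log2 fold changes of 0.11 (SE 0.06) and -0.17 (SE 0.06) at 24M. Just inside the threshold of the rule lay 5330416C01Rik and Gm26945 (both 1.03 CPM), and just outside it lay Gm4211 at 0.991 CPM and A430110L20Rik at 0.986 CPM.

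**Figure D1:**
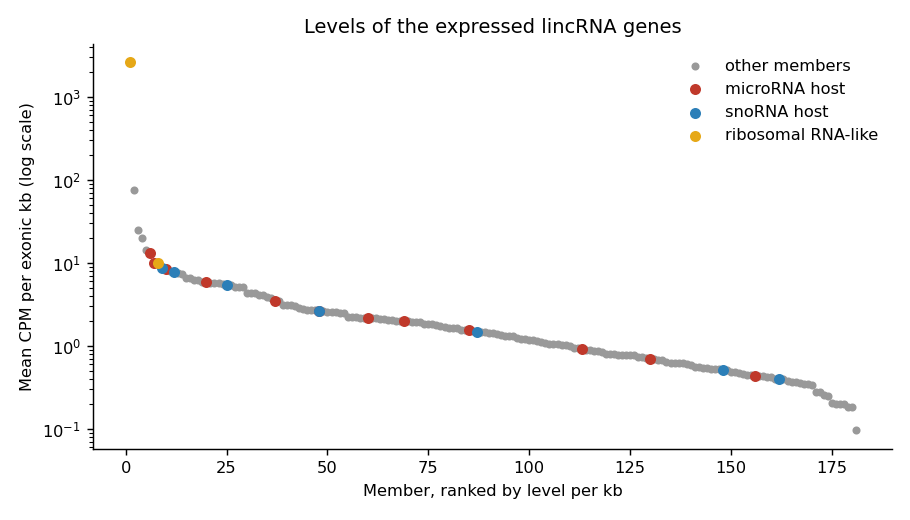
Mean CPM per kb of exon over the 17 libraries (log axis) of each of the 181 members, ranked, with microRNA hosts, snoRNA hosts and ribosomal RNA-like genes coloured. Gm42418 stands at 2620 CPM per kb and the median member at 1.45 CPM per kb.

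Levels at 3M were close between the library types for most members, with a median ratio of paired-end to single-end CPM of 1.02. Over 2-fold higher in the paired-end libraries were 4 members, Gm42418, Gm26917, Gm10076 and Gm26809, the last named after its values were seen. Without 3M paired-end replicate 1, Gm26917 stood at 12.5 CPM in the paired-end libraries against 16.5 CPM in the single-end ones, a ratio of 0.754. Gm10076, with 0.384 kb of exon, stood at 0.505 CPM in the single-end and 15.7 CPM in the paired-end libraries, and was not tested at 24M. Over 2-fold lower was 1 member, Xist.

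Neither of the 2 ribosomal RNA-like members was called at either age. Gm42418 lay between 136 and 1369 CPM in the single-end libraries. Among the paired-end libraries the 3M samples held 23980, 2324 and 930.3 CPM, and the 29M samples 2099, 45915 and 1561 CPM. The groups overlapped at both ages, with log2 fold changes of 0.08 (SE 0.60) for 24M and 0.89 (SE 1.16) for 29M. Gm26917, from the same locus on chromosome 17, reached 131 CPM in 3M paired-end replicate 1 and 246 CPM in 29M replicate 2, the same 2 libraries. At 24M its mean was 9.89 CPM against 16.5 CPM at 3M, a log2 fold change of -0.74 (SE 0.23, adjusted p = 0.0701), and it was called lower with no filter, with the 24M pair kept apart and without 3M replicate 5 or 24M replicate 5. Members took 2.59% and 4.79% of the counts in those 2 libraries, and without the 2 ribosomal RNA-like genes between 0.167% and 0.201% of counts in every library.

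At 24M the median SE of the log2 fold change was 0.18 for members and 0.09 over all genes tested. A member without a call is thus not shown to be unchanged. A call needed an adjusted p no higher than 0.05, from edgeR's quasi-likelihood test over all genes, and a log2 fold change of 0.5 or more in size. Of 180 members tested, 2 were called higher (1.34% of all genes tested were) and 3 were called lower (0.638% of all genes). By adjusted p alone, 2 were higher and 7 lower, against 3.21% and 2.37% of all genes. At an unadjusted p under 0.05 there were 37 members, against 26.1% of all genes. The 24M samples lay entirely above the 3M samples for 2 members (2.94% of all genes) and entirely below for 7 (3.59% of all genes). Of the members, 108 lay above 0 and 72 below, with a median log2 fold change of 0.05 against -0.0032 over all genes. Without 24M replicate 3 that median was -0.02. Among genes of at least 1 CPM, medians were 0.018 for antisense genes, 0.057 for processed transcripts and -0.047 for processed pseudogenes.

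Gm26617 (ENSMUSG00000097340) lies on the X chromosome (GRCm38, positions 94793103 to 94798237) and shares an exon with the pseudogene Zxda on the other strand. It was measured at 2.05, 2.403, 1.58, 2.10 and 3.45 CPM at 3M and at 3.90, 4.83, 5.57, 3.49 and 3.69 CPM at 24M. The 2 groups did not overlap, 24M being higher, and the log2 fold change was 0.92 (SE 0.21, adjusted p = 0.0263). Its fold change at 29M was 0.35 (SE 0.20, adjusted p = 0.411). Zxdb, the nearest protein-coding gene at 62.9 kb, changed by 0.57 (SE 0.21, adjusted p = 0.107) at 24M and by 0.0046 (SE 0.10) at 29M. The call of Gm26617 at 24M held in 7 of the 11 analyses that each left out 1 library. Those without 24M replicate 1 or 4 kept the other of the pair as its sample. It was also lost with the 24M pair left out and with a replicate block. The same was true with the share of reads without a gene as a covariate.

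D730003I15Rik (ENSMUSG00000073478) has a single exon on chromosome 1 (191224454 to 191226140), 6.42 kb from Atf3, a stress-induced transcription factor. Its levels were 1.55, 1.31, 1.27, 1.43 and 1.82 CPM at 3M and 2.23, 2.79, 1.82, 2.36 and 2.06 CPM at 24M, with 1 of the 24M samples just below the highest 3M sample. The log2 fold change was 0.62 (SE 0.17, adjusted p = 0.0495), and the call held in 2 of 11 analyses with 1 library left out. It was lost with DESeq2, with no filter, with a replicate block and with the 24M pair left out. With the share of reads without a gene as a covariate it was lost too. At 29M the fold change was 0.62 (SE 0.22, adjusted p = 0.171), and the 29M samples did not overlap with 3M. Atf3 itself was at 1.14 CPM, with log2 fold changes of 0.13 (adjusted p = 0.771) and 0.84 (adjusted p = 0.181).

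D330050G23Rik (ENSMUSG00000085316), on chromosome 2 (116900152 to 116912791), fell at 24M. It was measured at 1.69, 2.298, 2.18, 1.997 and 1.97 CPM at 3M and at 1.18, 1.21, 1.42, 0.956 and 0.760 CPM at 24M. No sample of one group reached the other, with a log2 fold change of -0.83 (SE 0.18, adjusted p = 0.0247). The call was lost only without 24M replicate 2 among the 11 analyses that left out 1 library. It was also lost with the 24M pair left out, with a replicate block and with the share of reads without a gene as a covariate. At 29M the fold change was -0.04 (SE 0.29). Tmco5, the nearest protein-coding gene, changed by -0.25 (SE 0.29, adjusted p = 0.611) at 24M.

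Gm12371 (ENSMUSG00000084898) starts 1.22 kb from the start of Lingo2, a neuronal membrane protein gene, on the other strand of chromosome 4 (36952966 to 36988032). Its levels were 1.41, 1.83, 1.30, 2.41 and 1.38 CPM at 3M and 1.32, 0.680, 0.607, 0.450 and 0.760 CPM at 24M. The pooled 24M sample of replicates 1 and 4 lay within the 3M range, and the other 4 lay below it. The log2 fold change was -1.13 (SE 0.28, adjusted p = 0.0367), and the call held in 4 of 11 analyses with 1 library left out. It held in 7 of 9 other alternatives, and was the only call at 24M with the 24M pair left out. Lingo2 changed by -0.12 (SE 0.09, adjusted p = 0.444).

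2410018L13Rik (ENSMUSG00000073164), on chromosome 12 (22953997 to 23010284), shares exons with 2 pseudogenes on its own strand, so its counts are uncertain. It stood at 1.46, 0.992, 1.27, 1.43 and 0.936 CPM at 3M and at 0.557, 0.529, 0.658, 0.788 and 0.326 CPM at 24M. The groups did not overlap, and the log2 fold change was -1.01 (SE 0.24, adjusted p = 0.0315). The call held in 5 of 11 analyses with 1 library left out. 2410018L13Rik also lost it with the 24M pair left out, with a replicate block and with the share of reads without a gene as a covariate. At 29M its fold change was -0.62 (SE 0.37, adjusted p = 0.416).

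**Figure D2:**
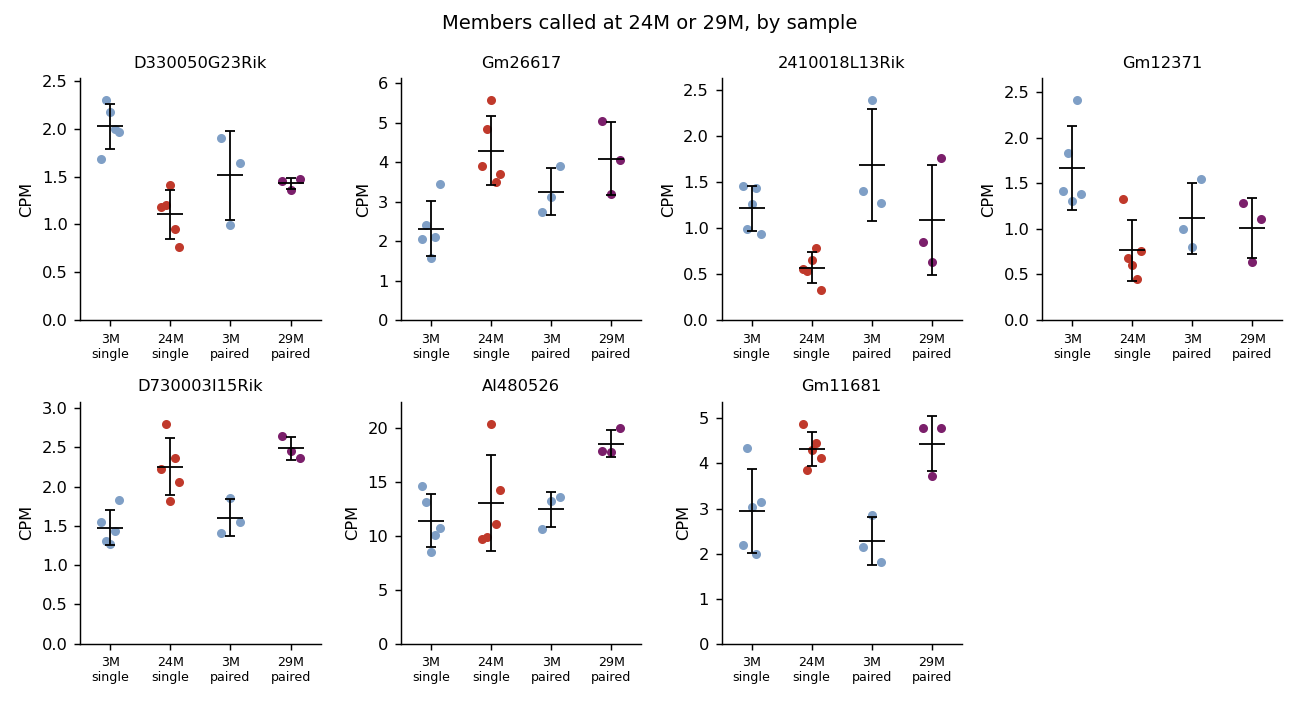
CPM by sample of the 7 members called at 24M or 29M, with 3M samples in blue, 24M in red and 29M in purple, and bars for the mean and SD of each group. D330050G23Rik, 2410018L13Rik and Gm26617 do not overlap between 3M and 24M, and AI480526 and Gm11681 do not overlap between 3M and 29M.

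Pantr1 starts 0.926 kb from Pou3f3, a transcription factor gene of neural development, and is transcribed away from it. Its levels were 39.0, 40.9, 39.2, 46.5 and 48.5 CPM at 3M and 34.8, 34.9, 33.1, 33.3 and 31.3 CPM at 24M. The paired-end samples held 35.6, 33.0 and 31.5 CPM in the 3M group and 28.2, 26.2 and 28.6 CPM in the 29M group. Of the 179 members tested at both ages, it was the only member whose aged samples all lay on the same side of the 3M samples at both. The 24M samples lay entirely above for 2.94% of all genes and entirely below for 3.59%. At 29M these shares were 9.05% and 10.5%. The share of all genes at both ages was not computed, so 1 such member is a description only. The log2 fold changes of Pantr1 were -0.35 (SE 0.07, adjusted p = 0.0192) at 24M and -0.26 (SE 0.07, adjusted p = 0.0689) at 29M, both under the size needed for a call. Pou3f3 changed by -0.24 (SE 0.05, adjusted p = 0.0263) at 24M and by -0.01 (SE 0.06) at 29M. The markers of neurogenesis moved in the same direction, with 4 of 5 called lower at 24M and 2 called lower at 29M, and their summed level was 32.5 to 46.0 CPM at 3M against 20.4 to 28.8 CPM at 24M. Markers of neocortex moved as well at 24M (3 of 4 called lower, 120 to 231 CPM at 3M and 102 to 116 CPM at 24M). The part of either in the level of Pantr1 was not tested.

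Another 3 members fell at 24M by adjusted p alone. D130017N08Rik changed by -0.30 (SE 0.07, adjusted p = 0.0326), 2900079G21Rik by -0.38 (SE 0.09, adjusted p = 0.0327) and Gm16295 by -0.40 (SE 0.10, adjusted p = 0.0354). Their adjusted p passed in 5, 6 and 3 of the 11 analyses with 1 library left out, in that order. 2900079G21Rik shares an exon with Arpp21, a neuronal phosphoprotein gene on the other strand. Arpp21 itself changed by -0.28 (SE 0.08, adjusted p = 0.0546) at 24M. The library kit named in the study's methods does not mark strand, so reads in the stretch that the 2 genes share cannot be told apart.

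At 29M, of 180 members tested, 2 were called higher (1.34% of all genes tested were) and 0 lower (0.113% of all genes). By adjusted p alone 5 members were higher and 0 lower, against 2.32% and 0.662% of all genes. At an unadjusted p under 0.05 there were 24 members, against 17.3% of all genes. Of the members, 117 lay above 0 and 63 below, with a median log2 fold change of 0.08 against -0.0021 over all genes. Antisense genes of at least 1 CPM had a like median of 0.085, with 60.8% above 0, and processed transcripts of that level 0.050. Medians were below 0 for processed pseudogenes (-0.34) and bidirectional promoter lncRNA genes (-0.026) of that level, and for lincRNA genes under 1 CPM (-0.082). The 29M samples lay entirely above the 3M samples for 27 members (9.05% of all genes) and entirely below for 9 members (10.5% of all genes).

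AI480526 (ENSMUSG00000090086) starts 0.527 kb from Setd1b, a histone methyltransferase gene, and is transcribed away from it on chromosome 5 (123133723 to 123141666). Its levels were 10.6, 13.2 and 13.6 CPM at 3M and 17.9, 17.7 and 20.0 CPM at 29M. The groups did not overlap, and the log2 fold change was 0.58 (SE 0.10, adjusted p = 0.00511). Its adjusted p passed with each of the 6 libraries left out, but its fold change was 0.50 and just under the size needed without 3M replicate 1. In the fit of all 4 groups together its adjusted p was 0.416. At 24M the fold change was 0.22 (SE 0.20), with 20.3 CPM in replicate 3 and 9.75 to 14.2 CPM in the others, and -0.04 without replicate 3. Setd1b changed by -0.02 (SE 0.07) at 29M. AI480526 shares exons with 2 other lincRNA genes on the other strand.

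Gm11681 (ENSMUSG00000075437) lies 4.97 kb from Sox9, a transcription factor gene of astrocytes, on the other strand of chromosome 11 (112792731 to 112799008). Its levels were 2.16, 2.86 and 1.82 CPM at 3M and 4.79, 3.73 and 4.79 CPM at 29M. No sample of one group reached the other, and the log2 fold change was 0.94 (SE 0.20, adjusted p = 0.0245). The call held in 2 of 6 analyses with 1 library left out. It was also lost with DESeq2, in the fit of all 4 groups and without the 2 libraries rich in ribosomal RNA-like counts. At 24M it changed by 0.57 (SE 0.19, adjusted p = 0.0824). It was called higher at 24M with DESeq2, in the fit of all 4 groups and with the 24M pair kept apart. The same call was made without 3M single-end replicate 2. Sox9 changed by -0.10 (SE 0.09) at 24M and by -0.01 (SE 0.08) at 29M. Among astrocyte markers 1 of 5 was called higher at each age, and their summed level in the paired-end libraries was 1325 to 1403 CPM at 3M against 1672 to 1766 CPM at 29M, and the part of astrocytes in this result was not tested.

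The microRNA hosts rose at 29M in 3 of 12 cases by adjusted p, none of them by the size needed for a call, where 2.32% of all genes tested were higher by adjusted p. Of the 12, 11 lay above 0, as did 65% of all members and 49.4% of all genes. Their median log2 fold change was 0.21 at 29M, and 0.11 at 24M, where none of the 12 passed. By adjusted p at 24M, 3.21% of all genes were higher and 2.37% lower. Mir124a-1hg stood at 61.4, 58.5 and 61.9 CPM at 3M and at 80.4, 77.0 and 79.1 CPM at 29M. The 2 groups lay far apart relative to their spread, with a log2 fold change of 0.39 (SE 0.05, adjusted p = 0.00112), and the adjusted p passed with each of the 6 libraries left out. In the fit of all 4 groups together it was 0.657.

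Gm3764, a host of miR-9, stood at 52.4, 50.7 and 60.9 CPM at 3M and at 80.2, 67.9 and 64.5 CPM at 29M (log2 fold change 0.38, SE 0.08, adjusted p = 0.0228). The other hosts of miR-9 did not pass: C130071C03Rik changed by 0.03 (SE 0.06) and Mir9-3hg by 0.13 (SE 0.08). The difference in change between the 3 hosts was not tested. Ftx, which also belongs to the X inactivation centre, stood at 15.9, 20.6 and 20.5 CPM at 3M and at 29.1, 26.9 and 23.7 CPM at 29M (log2 fold change 0.49, SE 0.10, adjusted p = 0.0195). The adjusted p of Gm3764 and of Ftx each passed in 3 of 6 analyses with 1 library left out. Mir670hg was the 1 host below 0, at 2.07, 2.92 and 2.004 CPM against 1.71, 1.82 and 1.92 CPM, with a change of -0.37 (SE 0.24, adjusted p = 0.449).

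At 24M a single library stood out among the hosts. Mir124a-1hg was at 110.0 CPM in replicate 3 and at 48.2 to 59.5 CPM in the other 24M samples. Without that library its log2 fold change went from 0.24 to -0.05, that of Gm3764 from 0.19 to -0.02 and that of Ftx from 0.43 to 0.15. The host of let-7, 6720427I07Rik, changed by 0.58 (SE 0.21, adjusted p = 0.098) at 24M and by 0.28 (SE 0.21) at 29M. E130102H24Rik, the host of miR-101a, changed by 0.22 (SE 0.18) and 0.42 (SE 0.18).

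**Figure D3:**
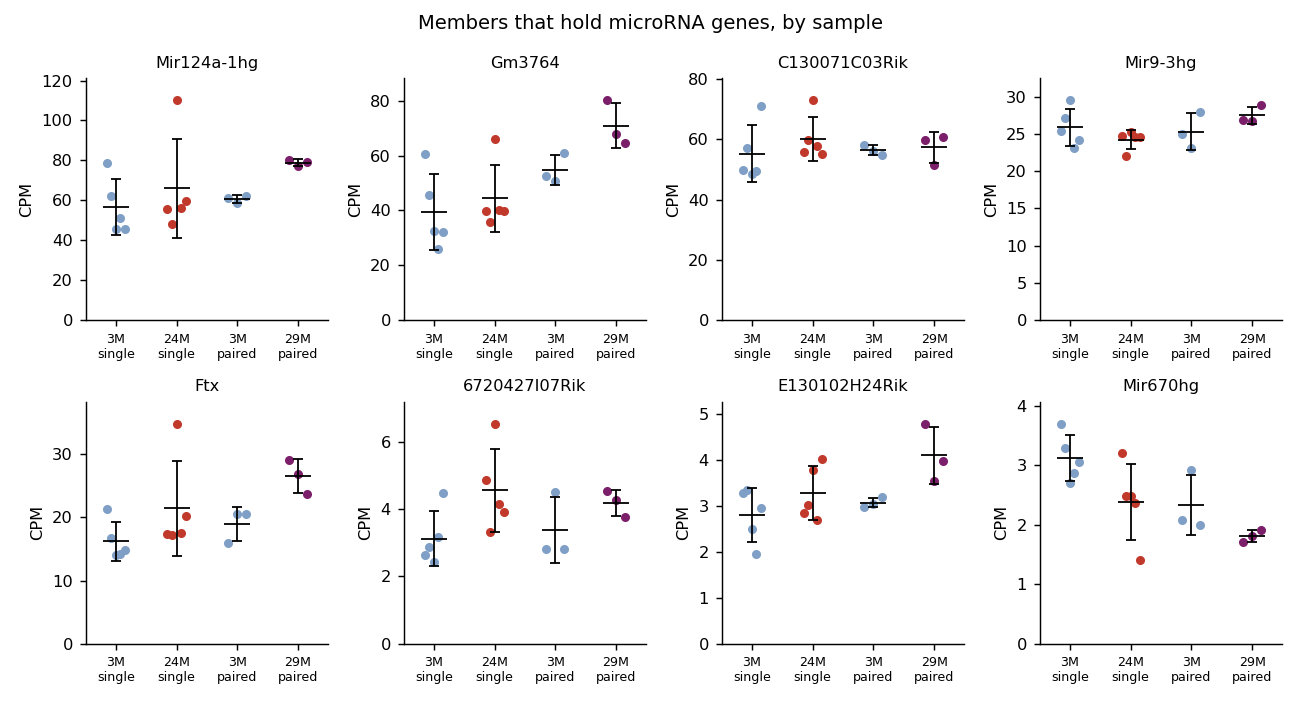
CPM by sample of 8 members that hold microRNA genes, coloured by age group (3M blue, 24M red, 29M purple), with bars for the mean and SD. Mir124a-1hg, Gm3764 and Ftx lie higher in all 29M samples than in the 3M paired-end samples, and the highest 24M sample of Mir124a-1hg, Gm3764, C130071C03Rik and Ftx is replicate 3.

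Of the snoRNA hosts, 0 of 7 passed by adjusted p at either age. Over all genes, 3.21% were higher and 2.37% lower by adjusted p at 24M, and 2.32% and 0.662% at 29M. With so few hosts, 0 does not set them apart from all genes. Snhg12 changed by 0.04 (SE 0.08) and 0.22 (SE 0.10), and Snhg6 by -0.05 (SE 0.09) and -0.05 (SE 0.13). Among the regulators of X inactivation besides Ftx, Jpx, an activator of Xist, changed by -0.02 (SE 0.13) and -0.13 (SE 0.17). Xist, the RNA that coats the inactive X chromosome, stood at 1.51 to 2.87 CPM at 3M and 2.23 to 4.23 CPM at 24M, and at 0 to 0.256 CPM in all paired-end libraries, where it was not tested. Its log2 fold change at 24M was 0.72 (SE 0.21, adjusted p = 0.0566). Pvt1, a neighbour of Myc, changed by 0.06 (SE 0.09) and -0.01 (SE 0.09).

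In the main analysis no member was called at both ages. The share of all genes called at both was not computed. At 24M 1.34% of all genes were called higher and 0.638% lower, and at 29M 1.34% and 0.113%. With such shares, a count of 0 does not by itself set the members apart. Gm11681, called at 29M, was also called higher at 24M with the 24M pair kept apart and in some other settings. Of 179 members tested at both, 83 lay above 0 at both, 38 below 0 at both and 58 changed sign. The change at 29M differed from that at 24M for 0 of the members (0% of all genes) by adjusted p in edgeR's quasi-likelihood test, with a smallest adjusted p of 0.392, and DESeq2 also gave 0. At an unadjusted p under 0.05 there were 9 members, against 10.4% of all genes. The smallest p values belonged to Gm26778 (difference 1.33, SE 0.40), Gm16295 (0.49, SE 0.16) and 2900079G21Rik (0.55, SE 0.18).

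**Figure D4:**
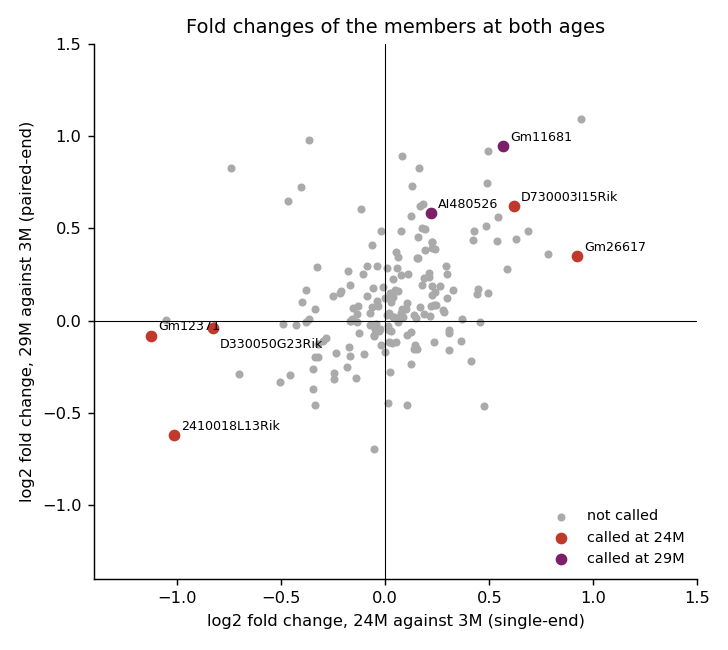
Log2 fold change of each of the 179 members tested at both ages, at 24M (x axis) and at 29M (y axis), with members called at 24M in red and at 29M in purple. In the main analysis shown, no member was called at both ages, and 58 members lie in the quadrants of opposite sign. The share of all genes called at both was not computed.

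Some members with large differences did not pass in the main analysis. AU020206 stood at 0.415, 1.20 and 1.28 CPM at 3M and at 2.22, 1.91 and 2.06 CPM at 29M, a log2 fold change of 1.09 (SE 0.32, adjusted p = 0.0863). At 24M its change was 0.94 (SE 0.28, adjusted p = 0.0629). Gm26945 and F420014N23Rik had changes of 0.92 (SE 0.30, adjusted p = 0.125) and 0.83 (SE 0.25, adjusted p = 0.0989) at 29M, with no overlap between the groups. In the other direction, 5330416C01Rik changed by -0.69 (SE 0.31, adjusted p = 0.271) and Gm14168 by -0.45 (SE 0.23, adjusted p = 0.352) at 29M.

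The members lay close to other genes. Within 5 kb of the nearest protein-coding gene lay 119 of 181, and 69 started within 5 kb of a protein-coding start in the opposite direction. An exon was shared with a gene of any type by 88 members and with a protein-coding gene by 49. For those 88 members the median log2 fold change was 0.16 at 29M and 0.07 at 24M, and for the 36 divergent members without a shared exon it was 0.01 and -0.05. The 43 members in none of the classes of position had 0.06 and 0.08, and the 5 that overlapped a gene without a shared exon had 0.43 and 0.18. These medians are descriptions without a test. The nearest protein-coding genes themselves had medians of -0.02 at 29M and -0.01 at 24M.

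RefSeq promoters (GRCm38.p6, from 250 bases before to 50 after the start) were matched for 96 members, and 79 of these started within 500 bases of the vM21 start. These 79 promoters held a median of 16 CG dinucleotides, against 7 in all 27025 promoters and 13 in the 17492 of protein-coding genes. Both comparison sets took 1 promoter per gene, the first by coordinate, from genes of any level. Members were chosen by level and matched at the start nearest to that of vM21, so the sets are not alike. Of the 79, the 32 with a divergent protein-coding start held a median of 29.5, and the other 47 held 11. The promoters of 4 called members whose starts coincide in both annotations are printed with CG dinucleotides in capitals, to show how their sequences differ.
Gm11681, chr11:112798959-112799258, minus strand: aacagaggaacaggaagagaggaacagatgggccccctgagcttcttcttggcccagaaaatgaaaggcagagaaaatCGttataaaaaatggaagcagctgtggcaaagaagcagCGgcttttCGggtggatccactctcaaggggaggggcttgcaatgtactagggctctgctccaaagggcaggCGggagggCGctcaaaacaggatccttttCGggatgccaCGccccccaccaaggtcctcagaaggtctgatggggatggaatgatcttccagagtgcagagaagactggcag
D730003I15Rik, chr1:191224204-191224503, plus strand: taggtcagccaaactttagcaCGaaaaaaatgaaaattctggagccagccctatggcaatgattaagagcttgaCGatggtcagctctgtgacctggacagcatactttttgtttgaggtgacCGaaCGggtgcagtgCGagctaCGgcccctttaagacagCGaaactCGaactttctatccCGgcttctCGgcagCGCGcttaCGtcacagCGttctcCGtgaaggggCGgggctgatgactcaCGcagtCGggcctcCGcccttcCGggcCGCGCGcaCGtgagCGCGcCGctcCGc
D330050G23Rik, chr2:116899902-116900201, plus strand: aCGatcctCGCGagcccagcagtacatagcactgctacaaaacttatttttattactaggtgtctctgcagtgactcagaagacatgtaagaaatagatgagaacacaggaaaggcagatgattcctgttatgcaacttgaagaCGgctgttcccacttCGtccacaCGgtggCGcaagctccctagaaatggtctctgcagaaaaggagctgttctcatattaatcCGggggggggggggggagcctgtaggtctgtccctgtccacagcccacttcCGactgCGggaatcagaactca
Gm12371, chr4:36952716-36953015, plus strand: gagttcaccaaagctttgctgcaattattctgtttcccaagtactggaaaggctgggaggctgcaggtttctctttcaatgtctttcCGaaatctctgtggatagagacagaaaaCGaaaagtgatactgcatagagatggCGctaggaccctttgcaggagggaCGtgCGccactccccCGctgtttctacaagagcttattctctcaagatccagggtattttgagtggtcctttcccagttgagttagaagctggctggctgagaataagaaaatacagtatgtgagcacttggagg
They held 7, 28, 10 and 6 CG dinucleotides. Motifs were searched on both strands. TATAAA occurs in the promoter of Gm11681 and in 14.1% of all promoters, and GGGCGG in that of D730003I15Rik and in 35.6% of all promoters. TGACTCA occurs in those of D730003I15Rik and D330050G23Rik, in 7.59% of the 79 members' promoters and in 5.20% of all promoters. This motif was added to the search after the promoter of D730003I15Rik had been read, so its presence there is no finding. CCAAT occurs in 36.7% of the members' promoters and 37.8% of all promoters, and TGACGTCA in 5.06% and 1.78%, without a test.

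The calls depended on single libraries. With 1 library left out, between 0 and 5 members were called higher and between 0 and 7 lower at 24M. No member was called at 24M without 24M replicate 2, and 12 were called without 3M replicate 5. At 29M between 0 and 3 members were called higher, with 0 without 3M replicate 1. D330050G23Rik at 24M and AI480526 at 29M kept their calls in most of these analyses, in 10 of 11 and 5 of 6. Where a library of the 24M pair was left out, the other library of the pair stood for it. Such analyses removed no sample, so every count out of 11 at 24M includes analyses with all samples still present. With the whole pair left out, D330050G23Rik lost its call.

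**Figure D5:**
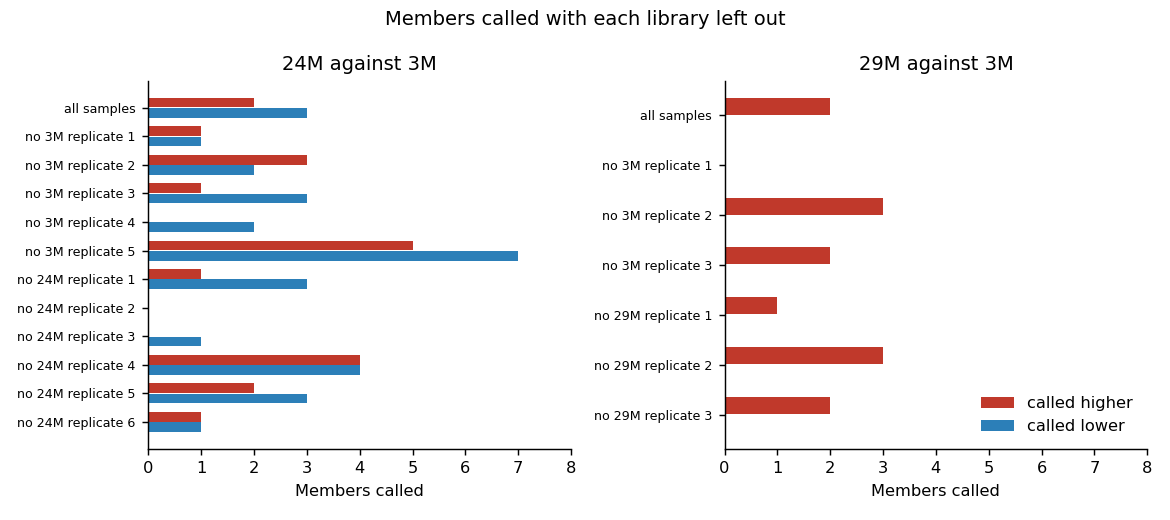
Number of members called higher (red) and lower (blue) against 3M with all samples and with each library left out, for 24M (left) and 29M (right). Where a library of the 24M pair was left out, the other library of the pair stood for it. The counts run from 0 to 5 higher and 0 to 7 lower at 24M, and from 0 to 3 higher at 29M.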

How the data were processed

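The authors aligned the reads to GRCm38.p2 with STAR 2.3.0 and counted them per gene with HTSeq 0.5.4p2, and deposited raw counts per gene for 17 libraries. The annotation version was not named in any source used here. The methods list the overlap mode as the counting option changed from its default and do not name the strand option, and the kit (TruSeq RNA v2) does not mark strand. Gene names, types, lengths, overlaps and coordinates were taken from GENCODE vM21, which is later. Lines of reads without a gene were left out of totals (8.59 to 15.9% of reads had no feature). The deposited counts went into edgeR 4.0.16 (quasi-likelihood test, TMM, filterByExpr, Benjamini-Hochberg over all genes) in R 4.3.3, with DESeq2 1.42.0 as an alternative. On simulated data 199 of 200 changed genes were recovered at 24M (15538 tested) and 198 of 200 at 29M (14960 tested), at a log2 change of 2. False calls numbered 5 and 8. Changes as small as those of the members were not simulated, so their recovery is not known. CPM is the count over the total on genes, and means carry the SD between samples. SE is the size of the log2 fold change over the square root of the F statistic of its quasi-likelihood test. Leaving out libraries, other filters and scalings and a replicate block were tried. Members, lists and motifs were chosen with earlier results of these data known. Named genes were those called, on role lists, at the extremes of level, nearest the threshold, or lowest in p when both ages were compared. Others had all aged samples on 1 side of 3M. D130017N08Rik and Gm26809 were named after their values were seen.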

Additional observations from a re-analysis of the deposited data

Results flagged for a closer look

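In 44 named members, 88 groups of 5 samples were examined for a sample far from the others (its gap to the nearest sample over the range of the group, with 0.71 as the limit), and 11 stood out where chance would give 4.4. In 24M replicate 3 these were Mir124a-1hg (0.817), C130071C03Rik (0.741), Gm3764 (0.865) and Ftx (0.831), all 4 of them microRNA hosts and all higher than in the other 24M samples. The named members include all 12 hosts by rule. Over all 181 members, 9 stood out as high in this library, and 5 of them were not hosts, Gm26767, Gm26792, Gm21781, Gm2824 and Gdap10, named after their values were seen. That library also had the highest share of reads without a gene in its group, 12.7%, and the part of this share was not tested. In 24M replicate 5, Gm42418 was higher at 1369 CPM (0.888) and 1700020I14Rik lower at 586 CPM (0.803). Mir9-3hg was lower in 24M replicate 2 (0.824). In 24M replicate 6, the shallowest library, Gm26778 was higher (0.741) and 5330416C01Rik lower (0.822). At 3M, Jpx was higher in replicate 5 (0.731) and Xist in replicate 1 (0.735).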

How the results depend on the processing

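Against 2 members higher and 3 lower at 24M, DESeq2 called 4 higher, the fit of all 4 groups 6 and 5, the 24M pair kept apart 4 and 5, and the pair left out 0 and 1. No filter called 5 lower and no fold threshold 7 lower. A minimum of 2 CPM called 1 and 0, and members without a shared exon 1 higher. With the share of reads without a gene as a covariate, added after the data were seen, 0 and 0 were called and the median became -0.0449. With 1 library left out, 0 to 5 were called higher and 0 to 7 lower, and the median ran from -0.02 to 0.06. At 29M, against 2 higher, DESeq2 called 1, no filter 7 (Gm42418 and Gm26917 among them), the fit of all 4 groups 0, members without a shared exon 1 (median 0.024) and no fold threshold 5. The covariate called 2 lower, Gm42418 (-2.26) and Gm26917 (-2.52), which reversed. With 1 library left out, 0 to 3 were called higher, and the median ran from 0.059 to 0.115. Without the filter, the 29M fit gave all genes of like level 1 spread in place of their own (its prior degrees of freedom were infinite). For the other changes the cause was not tested.

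Replicate numbers did not pair the samples (correlations of same-numbered samples from -0.175 to 0.0965, with 1 of 8 samples, 29M replicate 3, correlating best with its own number). The replicate block called 0 higher and 0 lower at 24M and 2 and 0 at 29M. Of 1456 values of named members under an alternative, 1277 kept their direction and side of the threshold, 96 changed sign without a call, 52 lost a call or threshold, 29 gained one and 2 reversed.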
